A study of Rattus norvegicus with 20 samples.

Results

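Axon guidance ligands and receptors were measured in the dentate gyrus of rats stimulated in the amygdala to induce epilepsy and of sham-operated rats. The set was a list of 56 genes in 4 families, which were Eph receptors with ephrins, semaphorins with plexins and neuropilins, Slits with Robos, and netrins with their receptors. Each gene was read at the probe set annotated to it alone, with the highest mean over all arrays. Of the 56 genes, 53 had such a probe set, 1 each, and all 53 were above the background often enough to be tested, among 15800 probe sets tested in all. They comprised 25 ligands and 28 receptors. Ephb4, Efna3 and Unc5d were not analysed here.

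RNA came from the left dentate gyrus of adult male Sprague-Dawley rats and was hybridised to Affymetrix Rat Gene 1.1 ST arrays, 1 array per rat. There were 4 groups of 5 rats: stimulated rats at 7 d, sham-operated rats at 7 d, stimulated rats at 30 d and sham-operated rats at 30 d. Stimulated rats had an electrode in the left lateral amygdala through which status epilepticus (SE) was evoked, and the SE was ended with diazepam. Sham-operated rats carried the same electrodes but were not stimulated, so surgery was shared by all 4 groups, whereas current, SE, later seizures and diazepam cannot be told apart. The dentate gyrus was dissected whole, and in such tissue fewer cells of a type and less RNA per cell cannot be told apart.

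Guidance molecules steer growing axons by attracting or repelling the growth cone, and many stay present in adult neurons, where they act at synapses and dendritic spines. Ephrins are bound to the membrane and bind Eph receptor tyrosine kinases on the neighbouring cell. Semaphorins signal through plexins, for which neuropilins are co-receptors of the secreted class. Secreted Slits bind Robo receptors and netrins bind Dcc and the Unc5 receptors. In the dentate gyrus, such cues are known for their part in the laminar targeting of entorhinal afferents and of mossy fibres, the axons of granule cells, which sprout into the inner molecular layer in experimental epilepsy.

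Values are log2 intensities, so a difference of 1 is a doubling, and levels of different genes are not compared because probe sets differ in brightness. Of the granule cell markers, Prox1 lay between 9.35 and 9.64 in the 10 stimulated rats, against 9.51 and 9.82 in the 10 sham rats, Calb1 and C1ql2 were likewise well above the background of 3.69, and Tdo2 was at or below it on all 20 arrays. Correlations between arrays lay between 0.9715 and 0.9977, and stimulated 7 d rat 5 had the lowest median correlation with the other arrays (0.982). Sham 30 d rat 3 was low in many guidance genes, so the counts of called genes were also computed without these 2 rats (3 higher and 6 lower at 7 d, and 5 lower at 30 d, beside the counts below). Over all probe sets the 635 called higher and 389 called lower at 7 d became 500 and 307 without them. The 142 called lower at 30 d became 162. Of all probe sets, 4.02% were called higher and 2.46% lower at 7 d, and 0.835% and 0.899% at 30 d. The counts of cell type genes that follow stand beside these shares, at which a short list can easily hold 0 called genes. Of 12 microglia and macrophage genes, 11 were higher in stimulated rats at 7 d and 5 at 30 d. Their mean log2 level spanned 6.93 to 7.95 in stimulated rats, against 6.26 to 6.33 in sham rats at 7 d, and 6.55 to 7.66 against 6.26 to 6.53 at 30 d. Of 9 astrocyte genes, 4 were higher at 7 d and 3 at 30 d. Of 9 genes of mature granule cells, 1 was lower at each time and 0 were higher. The lower gene was Calb1 at 7 d (-0.38, limma adjusted p = 0.0214) and Pdzd2 at 30 d (-0.35, limma adjusted p = 0.0408). Calb1 had -0.35 at 30 d (limma adjusted p = 0.0741). Of 12 interneuron genes, Erbb4 was lower at 30 d (-0.42, limma adjusted p = 0.0135) and none was called at 7 d, and the median change of the list was -0.0638 at 7 d and -0.156 at 30 d. Of 11 genes of the oligodendrocyte lineage, Enpp6 was higher at 7 d (0.85, adjusted p = 0.0032) and none was called at 30 d. None of the 6 CA1, 9 CA3 and mossy cell, 8 endothelial, 8 meningeal or 5 choroid plexus genes tested was called at either time. Single rats differed, however. The CA1 gene Wfs1 read 8.64 and 9.25 in stimulated 30 d rats 4 and 5 and 8.81 in sham 30 d rat 2, against 8.14 or less elsewhere. C1ql2 read 8.81 in stimulated 7 d rat 5 and 8.74 in stimulated 30 d rat 5, against 9.48 or more elsewhere. The part of these cell types in the changes of the guidance genes was not tested.

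At 7 d, 4 of the 53 guidance genes were higher in stimulated rats and 8 were lower (limma, adjusted p under 0.05 over all 15800 probe sets). The increases were those of the ephrins Efna5 and Efna1, the plexin Plxnb2 and the semaphorin Sema5a. The decreases were those of the receptor Epha8, the ligand Efnb2, the plexin Plxnc1, the cues Slit2 and Slit3 with the receptor Robo1, the netrin relative Ntng1 and the netrin receptor Dcc. The 4 increases are 7.55% of the guidance genes, where 4.02% of all probe sets were called higher, and the 8 decreases are 15.1%, where 2.46% of all probe sets were called lower. In 11 guidance genes (20.8%) all 5 rats of one group lay beyond all 5 of the other, against 6.25% of all probe sets. The guidance genes were chosen with earlier results of these data known, so the shares here and below describe them and test nothing. The median change of the 53 genes was -0.0581, beside 0.00182 over all probe sets, and the median size of a change was 0.106, beside 0.0687. With each array centred on its median, 2 guidance genes were higher and 11 lower at 7 d, while over all probe sets the split of 635 higher and 389 lower became 502 and 574. Leaving out single rats gave 2 to 5 increases and 5 to 10 decreases, with 2 and 5 without sham 7 d rat 4, 2 increases without stimulated 7 d rat 4 and 5 decreases without stimulated 7 d rat 5. Over all probe sets the 635 and 389 became 486 and 278 without sham 7 d rat 4. They became 633 and 359 without stimulated 7 d rat 4, and 443 and 242 without stimulated 7 d rat 5. Without the 3 rats of highest Ttr, a choroid plexus gene (stimulated 7 d rats 2 and 5 and stimulated 30 d rat 5), there were 2 increases and 4 decreases, while over all probe sets the 635 and 389 became 272 and 169.

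**Figure D1:**
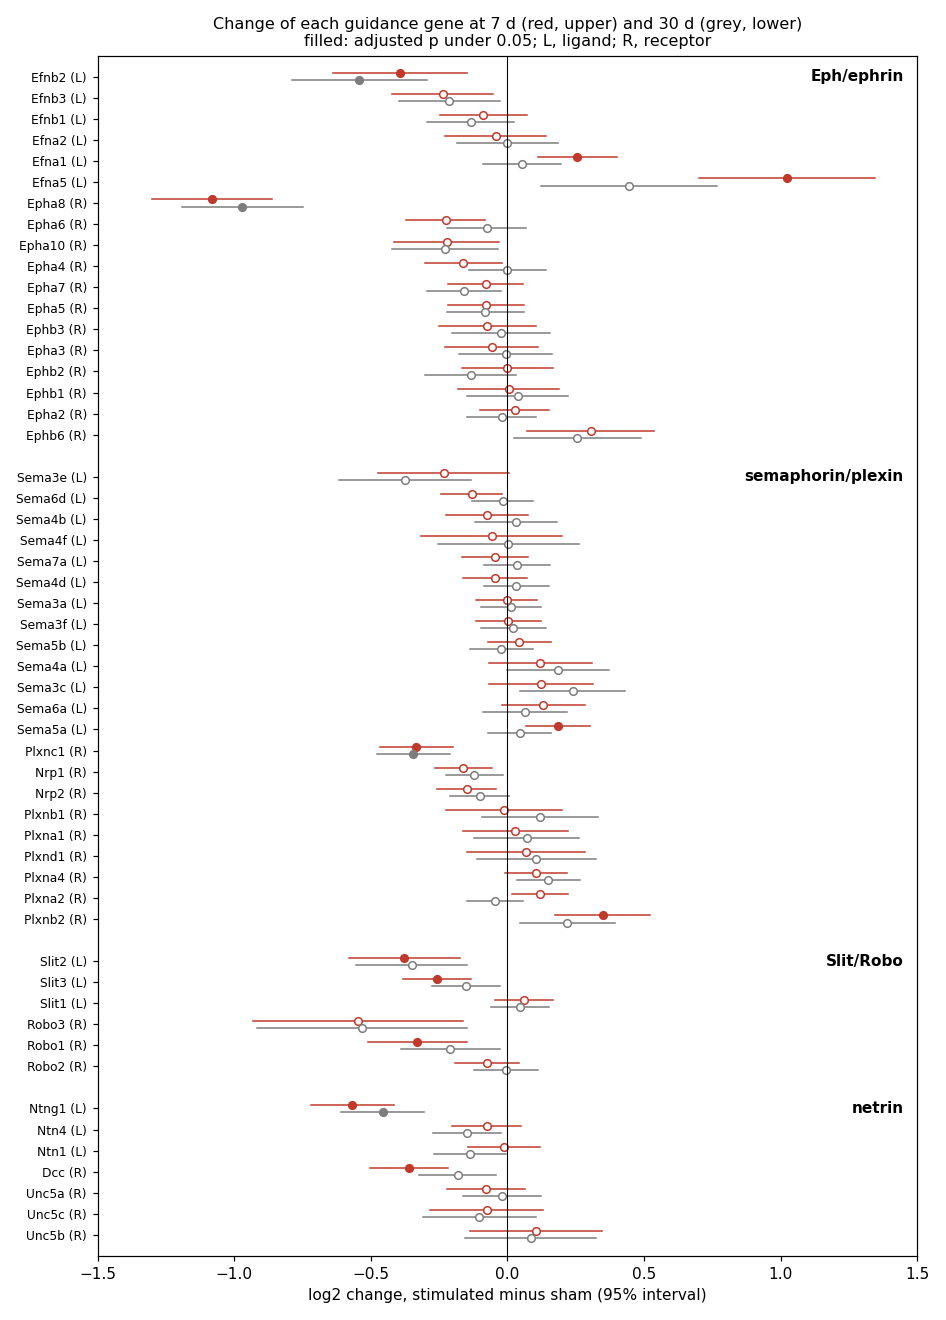
Log2 change (stimulated minus sham, horizontal axis) of the 53 guidance genes with its 95% interval, by family, with ligands (L) above receptors (R), the upper red mark of a pair for 7 d, the lower grey mark for 30 d, and filled marks for an adjusted p under 0.05. Epha8 lies farthest to the left at both times and Efna5 farthest to the right.

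At 30 d none of the 53 was called higher, where 0.835% of all probe sets were, and 4 (7.55%) were called lower, where 0.899% of all probe sets were. These 4 were Epha8, Efnb2, Plxnc1 and Ntng1, each of which was also called at 7 d. All 5 rats of one group lay beyond all 5 of the other in 6 guidance genes (11.3%), against 4.27% of all probe sets. These 6 were Epha8, Plxnc1, Slit2, Robo1, Ntng1 and Dcc, lower in stimulated rats in each case. With array weights the count of decreases at 30 d was 10, while over all probe sets the 142 decreases became 394. The count for the guidance genes lay between 3 and 6 when single rats were left out, while that over all probe sets lay between 69 and 186.

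The promoter letters below are those of the 4 genes lower at both times and of Efna5, which had the largest increase, shown so that the sequence at each gene's start can be read beside its values. Each is the 150 bases before a transcription start taken from RefSeq on GRCr8, on the gene's own strand. For Epha8, Ntng1 and Efnb2 this start is the outer end of the annotated gene, whereas for Plxnc1 and Efna5 it lies 218 and 209 bases inside it, so that their letters fall within the annotated span. Capitals mark the GC box GGGCGG and the CCAAT box CCAAT on either strand, and neighbouring GC boxes may overlap.
Epha8: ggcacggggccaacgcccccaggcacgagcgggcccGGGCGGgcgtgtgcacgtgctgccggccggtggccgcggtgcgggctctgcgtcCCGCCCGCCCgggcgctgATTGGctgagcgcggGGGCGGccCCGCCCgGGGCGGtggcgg
Ntng1: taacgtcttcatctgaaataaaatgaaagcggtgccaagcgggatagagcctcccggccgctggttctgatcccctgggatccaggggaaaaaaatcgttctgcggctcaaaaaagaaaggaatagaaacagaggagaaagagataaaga
Plxnc1: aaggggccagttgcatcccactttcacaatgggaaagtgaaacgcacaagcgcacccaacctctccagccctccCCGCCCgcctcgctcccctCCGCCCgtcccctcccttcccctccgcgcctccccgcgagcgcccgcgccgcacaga
Efnb2: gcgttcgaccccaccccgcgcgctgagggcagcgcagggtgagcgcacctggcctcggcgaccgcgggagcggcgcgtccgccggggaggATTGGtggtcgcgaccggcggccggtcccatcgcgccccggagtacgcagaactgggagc
Efna5: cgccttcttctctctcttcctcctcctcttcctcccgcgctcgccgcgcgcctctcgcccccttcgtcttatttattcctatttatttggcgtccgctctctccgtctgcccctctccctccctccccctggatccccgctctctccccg
They lie at chr5:154476967-154477116 (minus strand) for Epha8, chr2:200515032-200515181 (minus) for Ntng1, chr7:31430606-31430755 (minus) for Plxnc1, chr16:87485065-87485214 (plus) for Efnb2 and chr9:110042188-110042337 (minus) for Efna5.

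Within the 250 bases before the start, 41 of the 53 guidance genes had a sequence in the table, and GGGCGG occurred on either strand in 23 of them (56.1%), against 32.4% of 27457 genes with a sequence. Where a gene had several starts, the one nearest the outer end of its span was used, and the start was that end itself in 17 of the 41. Among the 10 called genes with a sequence it occurred in 5 (50%). CCAAT occurred in 12 of the 41 (29.3%), against 34.3% of all promoters. The cAMP response element TGACGTCA occurred in 1 of the 41 (2.44%), against 1.69%, and the AP-1 site TGANTCA in 1 (2.44%), against 6.33%. Neither occurred in a called gene. The median GC content was 64.8% in the 41 and 52% in all promoters, so GC-rich letters were common in the guidance genes as a whole. Matches are letters only and say nothing on whether a factor binds.

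Eph receptors and ephrins comprised 18 genes, of which 2 were higher and 2 lower at 7 d, and 0 and 2 at 30 d. Over all probe sets 4.02% were called higher and 2.46% lower at 7 d, and 0.835% and 0.899% at 30 d. Epha8, an EphA receptor tyrosine kinase that binds the ephrins anchored by a lipid, had the largest decrease of the 53 at both times. Epha8 log2 intensity at 7 d was 6.64, 6.56, 6.51, 6.42 and 6.84 in stimulated rats 1 to 5, against 7.71, 7.54, 7.50, 7.63 and 8.0 in sham rats 1 to 5. Every stimulated rat lay below every sham rat, and the gap between the groups was wider than either group. Epha8 averaged 6.60 ± 0.16 in stimulated rats and 7.68 ± 0.20 in sham rats (SD, n = 5 each), a fall to 47.3% of the sham level (log2 change -1.08, standard error 0.106, limma adjusted p = 5.15e-06). At 30 d, Epha8 read 6.61, 6.60, 6.57, 6.44 and 6.47 in stimulated rats, against 7.38, 7.58, 7.26, 7.41 and 7.92 in sham rats. The groups were again fully apart, and the stimulated rats were as low as at 7 d. The change at 30 d was -0.97 (standard error 0.106, limma adjusted p = 6.71e-05), 51% of the sham level. By size of decrease Epha8 ranked 4 of 15800 probe sets at 7 d and 6 at 30 d, and by p it ranked 4 at 7 d and 2 at 30 d. Across 35 alternative settings the change of Epha8 lay between -1.19 and -1.0 at 7 d and between -1.03 and -0.87 at 30 d, always past the threshold.

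Efna5, ephrin A5, is a lipid-anchored ligand of EphA receptors, known for repelling axons in topographic maps, and it moved opposite to Epha8. Efna5 log2 intensity at 7 d was 6.05, 6.46, 5.96, 6.11 and 6.82 in stimulated rats, against 5.11, 5.32, 5.0, 5.71 and 5.15 in sham rats. All stimulated rats were above all sham rats, although stimulated rat 5 and sham rat 4 each stood above the rest of their group. Its mean was 6.28 ± 0.36 in stimulated rats and 5.26 ± 0.28 in sham rats (SD, n = 5 each), 203% of the sham level (log2 change 1.02, standard error 0.155, limma adjusted p = 3.79e-04). At 30 d, Efna5 read 5.68, 5.81, 5.84, 5.53 and 5.98 in stimulated rats, against 5.72, 5.42, 5.23, 5.02 and 5.22 in sham rats. Here the groups overlapped, with sham rat 1 inside the range of the stimulated rats. The change at 30 d was 0.44 (95% interval 0.12 to 0.77, limma adjusted p = 0.196), below that at 7 d in size, and the difference between the changes was -0.58 (unadjusted p = 0.0154, limma adjusted p = 0.9996). Efna5 was past the threshold at 7 d under all 35 alternatives, with a change of 0.78 to 1.14, and at 30 d under none.

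Efna1, another lipid-anchored ephrin, had a smaller increase. Efna1 log2 intensity at 7 d was 5.72, 5.78, 5.75, 6.10 and 6.01 in stimulated rats, against 5.49, 5.68, 5.67, 5.57 and 5.67 in sham rats. The groups did not overlap, but stimulated rats 1 to 3 lay close to the highest sham rats. The change of Efna1 was 0.26 (standard error 0.0692, limma adjusted p = 0.0272), and at 30 d it was 0.054 (adjusted p = 0.862) with overlapping groups. The call at 7 d was lost without sham 7 d rat 1 (0.22), sham 7 d rat 4 (0.24), stimulated 7 d rat 4 (0.20) or stimulated 7 d rat 5 (0.22). It was also lost in 5 of 15 other settings (highest limma adjusted p = 0.13). Among these were the further quantile normalization, median centring and a fit to only the groups compared.

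Efnb2 encodes a transmembrane ephrin that binds EphB receptors and Epha4, and it was called lower at both times. Efnb2 log2 intensity at 7 d was 5.09, 5.0, 4.73, 4.98 and 4.92 in stimulated rats, against 5.23, 5.50, 5.35, 5.53 and 5.06 in sham rats, and at 30 d it was 4.73, 4.72, 4.72, 5.22 and 4.85 in stimulated rats, against 5.54, 5.47, 4.93, 5.54 and 5.48 in sham rats. At 7 d the groups met at stimulated rat 1 and sham rat 5. At 30 d stimulated rat 4 was high and sham rat 3 low, and they crossed, while the other 4 stimulated rats lay below the other 4 sham rats. The change of Efnb2 was -0.39 at 7 d (standard error 0.118, limma adjusted p = 0.0497) and -0.54 at 30 d (adjusted p = 0.0189), with 76.2% and 68.7% of the sham level. The call at 7 d sat at the threshold and was lost in 16 of 20 omissions of single rats, with changes of -0.46 to -0.34 over the 20. It held without stimulated 7 d rat 1, sham 7 d rat 5, stimulated 30 d rat 4 or sham 30 d rat 3. The call at 30 d was lost in 6 of 20 (stimulated 30 d rats 1 and 2 and sham 30 d rats 1, 2, 4 and 5), with changes of -0.66 to -0.51. Without sham 30 d rat 3, whose Efnb2 stood apart, the change at 30 d was -0.66.

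The other 14 genes of the family were not called at either time. Efnb3, a transmembrane ephrin, had changes of -0.24 at 7 d and -0.21 at 30 d, and Epha6 had -0.23 at 7 d and -0.076 at 30 d. In both, all stimulated rats lay below all sham rats at 7 d, but adjusted p was 0.129 and 0.0554. Ephb6, a receptor without kinase activity, had changes of 0.30 and 0.26 at 7 d and 30 d (adjusted p = 0.12 and 0.353). Epha4, the receptor that binds both ephrin classes, had a change of -0.16 at 7 d (adjusted p = 0.191). Of the other EphA receptors, the class that binds Efna5, Epha3 had -0.057 at 7 d, Epha5 -0.078 and Epha7 -0.08. These were smaller in size than the changes of Epha4 and Epha6 above. Epha8 was the only Eph receptor called. Across the 12 Eph receptors the changes at 7 d ran from -1.08 to 0.304, and 9 were negative.

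**Figure D2:**
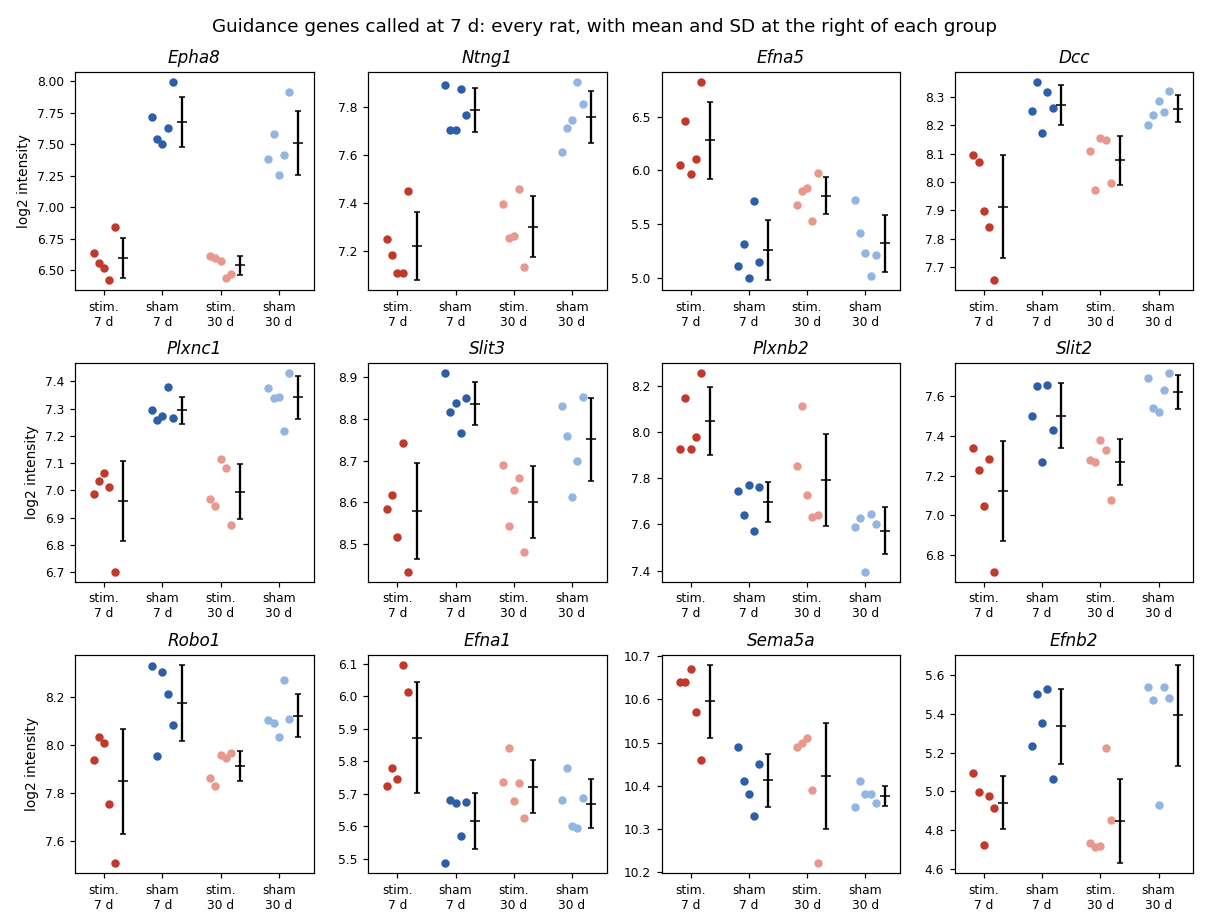
Log2 intensity (vertical axis, scaled per panel) of the 12 guidance genes called at 7 d, 1 point per rat, with stimulated rats left of sham rats at 7 d and at 30 d and the mean and SD (n = 5) at the right of each group. The groups are fully apart at both times in Epha8, Ntng1, Dcc and Plxnc1, while Efnb2, Slit2, Robo1 and Sema5a overlap at 7 d.

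Semaphorins, plexins and neuropilins comprised 22 genes, of which 2 were higher and 1 lower at 7 d, and 0 and 1 at 30 d. The shares over all probe sets were 4.02% and 2.46% at 7 d, and 0.835% and 0.899% at 30 d. Plxnc1, the plexin that binds the lipid-anchored semaphorin Sema7a, was the gene of the family lower at both times. Plxnc1 log2 intensity at 7 d was 6.99, 7.04, 7.07, 7.01 and 6.70 in stimulated rats, against 7.29, 7.26, 7.27, 7.38 and 7.26 in sham rats. The sham rats lay close together and above every stimulated rat, of which rat 5 was lowest. At 30 d, Plxnc1 read 6.97, 6.94, 7.12, 7.08 and 6.87 in stimulated rats, against 7.38, 7.34, 7.34, 7.22 and 7.43 in sham rats, again without overlap. The change was -0.33 at 7 d (standard error 0.0643, limma adjusted p = 0.00246) and -0.34 at 30 d (adjusted p = 0.00673), which is 79.4% and 78.7% of the sham level. Plxnc1 passed the threshold at both times under all 35 alternatives. Its ligand Sema7a had a change of -0.047 at 7 d (95% interval -0.17 to 0.07) and 0.036 at 30 d.

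Plxnb2 encodes a plexin that binds class 4 semaphorins. Plxnb2 log2 intensity at 7 d was 7.92, 8.15, 7.93, 7.98 and 8.25 in stimulated rats, against 7.74, 7.64, 7.77, 7.57 and 7.76 in sham rats. Every stimulated rat was above every sham rat, with stimulated rats 2 and 5 highest. At 30 d, Plxnb2 read 7.85, 8.11, 7.73, 7.63 and 7.64 in stimulated rats, against 7.59, 7.63, 7.40, 7.64 and 7.60 in sham rats, and the groups overlapped at stimulated rats 4 and 5. The change was 0.35 at 7 d (standard error 0.0842, limma adjusted p = 0.0137) and 0.22 at 30 d (adjusted p = 0.26). Stimulated 7 d rats 2 and 5 and stimulated 30 d rat 5 also had the highest Ttr, a transcript of the choroid plexus (6.15, 6.62 and 6.64). Without these 3 rats the change of Plxnb2 at 7 d was 0.25 and was not called (adjusted p = 0.177). The class 4 semaphorins of the set had changes at 7 d of 0.12 for Sema4a, -0.076 for Sema4b, -0.045 for Sema4d and -0.058 for Sema4f, none of them called. Sema4c and Sema4g, of the same class but outside the set, had 0.11 and 0.058 at 7 d and were not called.

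Sema5a encodes a transmembrane semaphorin with thrombospondin repeats. Sema5a log2 intensity at 7 d was 10.64, 10.64, 10.67, 10.57 and 10.46 in stimulated rats, against 10.49, 10.41, 10.38, 10.33 and 10.45 in sham rats. Stimulated rat 5 fell within the sham range, and the other 4 lay above it. The change of Sema5a was 0.19 (standard error 0.0559, limma adjusted p = 0.0495), the smallest of the 12 called, and at 30 d it was 0.044 (adjusted p = 0.857). The call sat at the threshold and was lost in 15 of 20 omissions of single rats, in which the change lay between 0.17 and 0.22. It held only without stimulated 7 d rat 5, sham 7 d rat 1, stimulated 30 d rats 2 or 5, or sham 30 d rat 3.

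The other 19 genes of the family were called at neither time. The neuropilins, co-receptors of secreted semaphorins, had small changes at 7 d that did not pass, -0.16 for Nrp1 (adjusted p = 0.0568, groups apart) and -0.15 for Nrp2 (adjusted p = 0.0935). Sema3e, a secreted semaphorin that can act on Plxnd1 without a neuropilin, had changes of -0.23 at 7 d and -0.37 at 30 d (adjusted p = 0.286 and 0.119), and Plxnd1 had 0.068 and 0.11. At 30 d, Sema3e read 6.74, 6.51, 6.78, 6.81 and 7.25 in stimulated rats, against 7.30, 7.15, 7.16, 7.26 and 7.08 in sham rats. In stimulated rats 1 to 4 it was below every sham rat, whereas stimulated rat 5 was not. That rat also had the highest Wfs1 (9.25) and Ttr (6.64) of all rats. Sema3e was called lower at 30 d without it, and without the 3 rats of highest Wfs1 or of highest Ttr, which include it. Sema3e was also called there without stimulated 7 d rat 5 and with array weights. Sema3a, the secreted semaphorin known as a repellent of many axons, had a change of -0.0033 at 7 d and averaged 3.90 in stimulated rats and 3.90 in sham rats, just above the background of 3.69, where little room is left for a decrease to show. In all, 11 of the 22 genes had a positive change at 7 d and 11 a negative one. The family median was -0.000321, beside 0.00182 over all probe sets.

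Slits and Robos comprised 6 genes, of which 3 were lower and 0 higher at 7 d, where 2.46% and 4.02% of all probe sets were. The median of their changes at 7 d was -0.294, beside 0.00182 over all probe sets. Slit2 and Slit3 are secreted ligands that repel axons, and Robo1 is a receptor of both. Slit2 log2 intensity at 7 d was 7.34, 7.23, 7.05, 7.29 and 6.72 in stimulated rats, against 7.50, 7.65, 7.27, 7.66 and 7.43 in sham rats, and at 30 d it was 7.28, 7.27, 7.38, 7.33 and 7.08 in stimulated rats, against 7.69, 7.54, 7.52, 7.63 and 7.71 in sham rats. At 7 d stimulated rat 5 was low and stimulated rats 1 and 4 overlapped with sham rat 3. At 30 d the groups were apart. The change of Slit2 was -0.38 at 7 d (standard error 0.0971, limma adjusted p = 0.0199) and -0.35 at 30 d (adjusted p = 0.0729), so nearly equal in size. At 7 d its call was lost without sham 7 d rat 2 (-0.34), sham 7 d rat 4 (-0.34) or stimulated 7 d rat 5 (-0.28). It was also lost in 3 of 15 other settings (highest limma adjusted p = 0.0987). At 30 d Slit2 was called in 4 of 35 alternatives (lowest limma adjusted p = 0.00492). One was the omission of stimulated 7 d rat 5 (adjusted p = 0.0155), which enters only through the shared spread. The others were array weights, a fit to only the groups compared, and the omission of the 2 rats that stand apart.

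Slit3 log2 intensity at 7 d was 8.58, 8.62, 8.52, 8.74 and 8.43 in stimulated rats, against 8.91, 8.82, 8.84, 8.77 and 8.85 in sham rats. All stimulated rats lay below all sham rats, with stimulated rat 4 nearest to them. Its change was -0.26 at 7 d (standard error 0.0602, limma adjusted p = 0.0105) and -0.15 at 30 d (adjusted p = 0.287), where stimulated rats ranged from 8.48 to 8.69 and sham rats ranged from 8.61 to 8.85. Without the 3 rats of highest Ttr the change at 7 d was -0.22 and was not called (adjusted p = 0.0814). Slit1, a Slit found mainly in the nervous system, had changes of 0.06 and 0.046 at 7 d and 30 d (95% interval at 7 d -0.05 to 0.17).

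Robo1 log2 intensity at 7 d was 7.94, 8.03, 8.01, 7.75 and 7.51 in stimulated rats, against 8.33, 7.95, 8.31, 8.22 and 8.08 in sham rats. Stimulated rats 2 and 3 lay above sham rat 2, and stimulated rat 5 was lowest of all. At 30 d, Robo1 read 7.86, 7.83, 7.96, 7.95 and 7.97 in stimulated rats, against 8.11, 8.09, 8.03, 8.28 and 8.11 in sham rats, without overlap but with groups close together. The change of Robo1 was -0.33 at 7 d (standard error 0.0872, limma adjusted p = 0.0234) and -0.21 at 30 d (adjusted p = 0.317). The call at 7 d was lost without sham 7 d rat 1 (-0.29), rat 3 (-0.30) or rat 4 (-0.32), or without stimulated 7 d rat 4 (-0.31) or rat 5 (-0.24). It was also lost in 4 of 15 other settings (highest limma adjusted p = 0.112). Robo3, a divergent Robo known from commissural axons, had the largest change of the family (-0.55 at 7 d and -0.53 at 30 d) and also the widest spread. Robo3 read 6.17, 5.07, 5.67, 5.57 and 4.90 in stimulated rats at 7 d, against 5.83, 6.03, 6.31, 5.90 and 6.04 in sham rats. Stimulated rat 1 lay inside the sham range and the other 4 below it, and the change did not pass (adjusted p = 0.0844). Robo2 had a change of -0.075 at 7 d (95% interval -0.19 to 0.04).

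Netrins and their receptors comprised 7 genes, of which 2 were lower and 0 higher at 7 d, and 1 was lower at 30 d. Of all probe sets, 2.46% were called lower and 4.02% higher at 7 d, and 0.899% lower at 30 d. Ntng1, netrin G1, is a lipid-anchored relative of the netrins that binds the ligand Lrrc4c at synapses in place of Dcc. Ntng1 log2 intensity at 7 d was 7.25, 7.18, 7.11, 7.11 and 7.45 in stimulated rats, against 7.89, 7.70, 7.70, 7.88 and 7.77 in sham rats. The highest stimulated rat, rat 5, was well below the lowest sham rat. At 30 d, Ntng1 read 7.40, 7.25, 7.26, 7.46 and 7.13 in stimulated rats, against 7.61, 7.71, 7.75, 7.90 and 7.81 in sham rats, again without overlap. Ntng1 averaged 7.22 ± 0.14 in stimulated rats and 7.79 ± 0.09 in sham rats at 7 d (SD, n = 5 each), 67.5% of the sham level (log2 change -0.57, standard error 0.0733, limma adjusted p = 9.24e-05), and at 30 d the change was -0.46 (adjusted p = 0.00194). Ntng1 passed at both times under all 35 alternatives, with changes of -0.63 to -0.54 at 7 d and -0.50 to -0.41 at 30 d. Lrrc4c, its binding partner, was also lower at 7 d (-0.24, standard error 0.0555, limma adjusted p = 0.00956) and had -0.0858 at 30 d (adjusted p = 0.617).

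Dcc encodes the receptor for attraction by netrin-1. Dcc log2 intensity at 7 d was 8.10, 8.07, 7.90, 7.84 and 7.65 in stimulated rats, against 8.25, 8.35, 8.17, 8.32 and 8.26 in sham rats. The groups were apart, and stimulated rat 5 was lowest. At 30 d, Dcc read 8.11, 7.97, 8.15, 8.15 and 8.0 in stimulated rats, against 8.20, 8.24, 8.29, 8.25 and 8.32 in sham rats, with no overlap but a smaller gap. The change of Dcc was -0.36 at 7 d (standard error 0.0685, limma adjusted p = 0.00221) and -0.18 at 30 d (adjusted p = 0.246). The difference between the changes was 0.18 (unadjusted p = 0.0819). Dcc was called at 7 d under all 35 alternatives and at 30 d under none. Its ligand Ntn1 had changes of -0.013 and -0.14 at 7 d and 30 d, and the laminin-related Ntn4 had -0.076 and -0.15, none of them called. Ntn4 was dim, at 4.24, 4.34 and 4.37 (lowest, median and highest) in stimulated rats and 4.29, 4.40 and 4.54 in sham rats at 7 d. The repulsive netrin receptors had changes at 7 d of -0.079 for Unc5a, 0.11 for Unc5b and -0.077 for Unc5c.

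**Figure D3:**
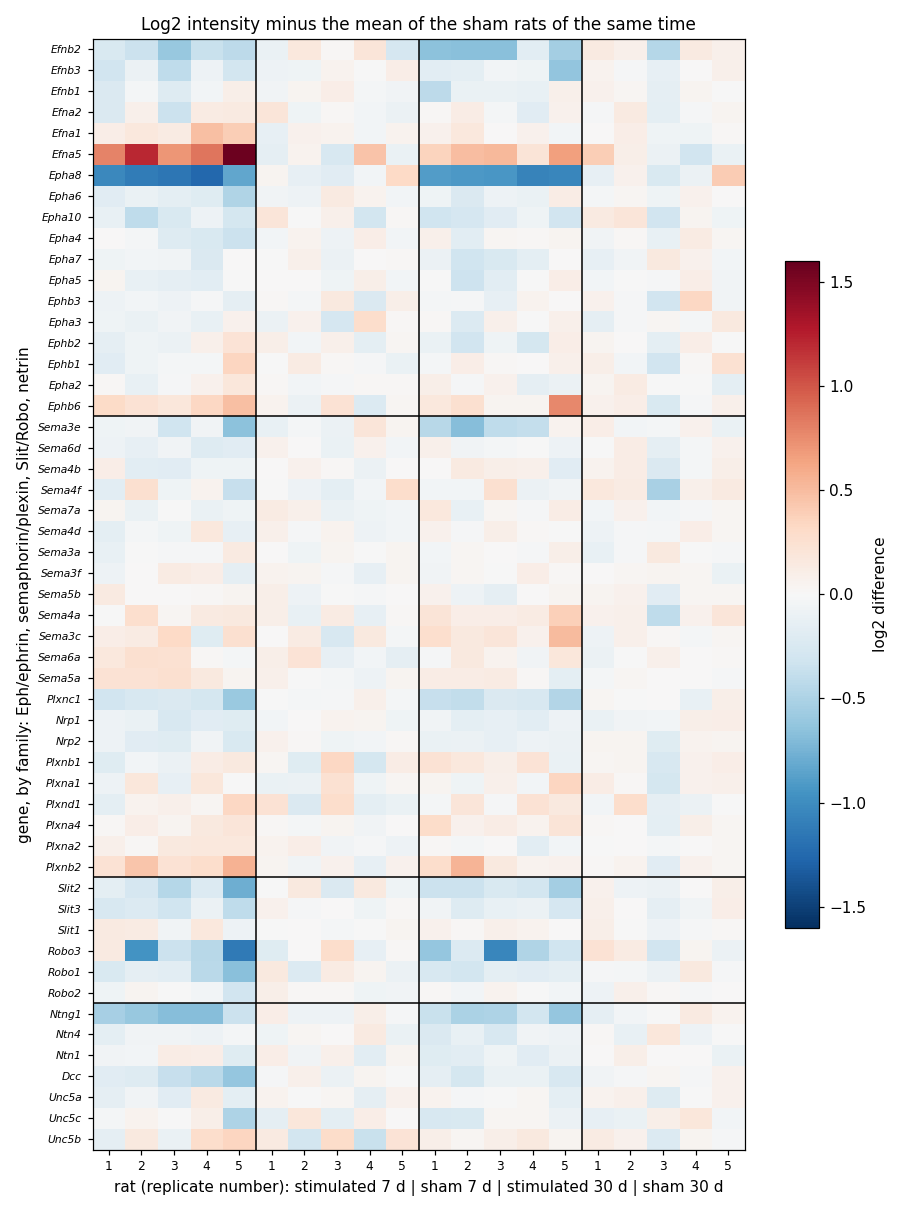
Log2 intensity of each guidance gene (rows, by family) in every rat (columns, stimulated 7 d, sham 7 d, stimulated 30 d and sham 30 d), minus the mean of the sham rats of the same time. Red is higher and blue lower, and the rows of Epha8, Ntng1 and Plxnc1 are blue in all 10 stimulated rats, while that of Efna5 is red, most deeply at 7 d.

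Changes at the 2 times were set side by side, since they rest on different rats. Of the 53 genes, 44 (83%) had the same sign at both times, against 64.6% of all probe sets, and the correlation of the changes was 0.904 across the 53 genes and 0.704 across all probe sets. Genes are not independent replicates, so this is a description. All 12 genes called at 7 d kept their sign at 30 d, and 10 of them had a smaller change there (83.3%). Over all probe sets called at 7 d, 95.1% kept their sign and 91.9% were smaller. Plxnc1 and Efnb2 were the exceptions, with changes at 30 d at least as large as at 7 d. The difference between the changes was called for none of the 53, where limma called 0% of all probe sets. At an unadjusted p under 0.05 it was Efna5 and Plxna2 (3.77% of the 53), against 4.32% of all probe sets. Plxna2, a plexin that binds transmembrane semaphorins and takes part in mossy fibre targeting in mice, had changes of 0.12 at 7 d and -0.044 at 30 d (difference -0.16, unadjusted p = 0.0281).

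**Figure D4:**
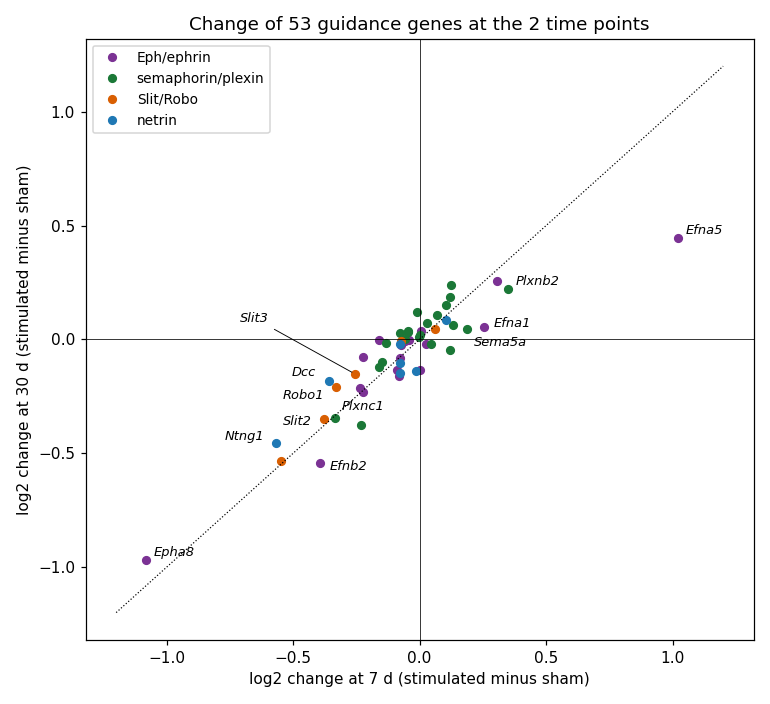
Log2 change (stimulated minus sham) of the 53 guidance genes at 7 d (horizontal axis) and 30 d (vertical axis), coloured by family, with the 12 genes called at 7 d named and equality dotted. The points follow the diagonal (r = 0.904), and Efna5 lies below it, with 1.02 at 7 d and 0.44 at 30 d.

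Sham rats at 30 d were compared with sham rats at 7 d to show the change with time in rats that were not stimulated. None of the 53 guidance genes passed, as for 0% of all probe sets in limma, and 4 (7.55%) had an unadjusted p under 0.05, against 13.3% of all probe sets. These 4 were Efna2 (-0.26), Ephb2 (-0.18), Ephb6 (-0.25) and Plxnb1 (-0.22), all lower at 30 d. Efna2 was called with array weights, under which calls over all probe sets were not counted for the sham groups. A comparison of the stimulated groups, added after the data were seen, uses the same arrays as the comparisons above. At 30 d, 1 guidance gene (1.89%) was higher than at 7 d, where 7.66% of all probe sets were, and 5 (9.43%) were lower, where 5.87% of all probe sets were. The gene higher at 30 d was Epha4 (0.24, limma adjusted p = 0.0253). The genes lower at 30 d were Efna5 (-0.51), Ephb2 (-0.32), Plxnb2 (-0.25), Plxna2 (-0.22) and Sema5a (-0.18). In Ephb2, an EphB receptor found at hippocampal synapses, sham rats also read lower at 30 d (above), and stimulated minus sham was -0.000296 at 7 d and -0.14 at 30 d.

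Averaged over both times, 10 stimulated rats against 10 sham rats, 5 of the 53 (9.43%) were higher, where 5.59% of all probe sets were, and 14 (26.4%) were lower, where 4.46% of all probe sets were. These values use the same arrays as those of each time, and the same genes, chosen with earlier results of these data known. Of the 12 genes called at 7 d, all but Sema5a were among these 19. The other 8 had been called at neither time. Of these, Robo3 (-0.54), Sema3e (-0.30), Epha10 (-0.23), Efnb3 (-0.22), Nrp1 (-0.14) and Nrp2 (-0.13) were lower, and Ephb6 (0.28) and Plxna4 (0.13), a plexin that pairs with neuropilins, were higher (limma adjusted p between 0.00886 and 0.0401). Epha10 and Ephb6 are both Eph receptors that lack kinase activity, and they moved in opposite directions. Epha10 spanned 4.77 to 5.10 in stimulated rats and 4.88 to 5.37 in sham rats at 7 d, and Ephb6 spanned 7.12 to 7.42 in stimulated rats and 6.72 to 7.16 in sham rats. By family, 4 of the 6 Slit and Robo genes, 7 of the 18 Eph and ephrin genes, 6 of the 22 semaphorin, plexin and neuropilin genes and 2 of the 7 netrin genes were called in this comparison.

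Other genes of the pathway were taken from 3 lists chosen beside the 53, and their counts stand beside 4.02% of all probe sets called higher and 2.46% called lower at 7 d, and 0.835% and 0.899% at 30 d. Of 15 further members of the same families, 0 were called at 7 d and 1 at 30 d, the secreted semaphorin Sema3d, which had 0.58 at 7 d (adjusted p = 0.0501) and 0.70 at 30 d (adjusted p = 0.0432). Of 14 co-receptors and other cues tested, Draxin, a secreted repellent that binds Dcc, was higher at 7 d (0.50, standard error 0.1, limma adjusted p = 0.0035), and the chemokine Cxcl12 (-0.41) and Lrrc4c were lower. None was called at 30 d. Draxin also stands in the list of newborn granule neurons, of which 3 of 8 tested genes were higher at 7 d (Sox11, Dcx and Draxin) and 2 were lower (Neurod1 and Nhlh1), with 1 higher and 1 lower at 30 d. Of 45 intracellular effectors tested, 4 were higher at 7 d and 0 lower. They were the collapsin response mediator Dpysl5 (0.38), the cofilin kinase Limk1 (0.39), the Slit and Robo effector Srgap2 (0.34) and the tyrosine kinase Fes (0.38), and none was called at 30 d. The median change at 7 d was 0.0544 in the further family members, -0.0588 in the co-receptors and cues and 0.0364 in the effectors, beside 0.00182 over all probe sets.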

How the data were processed

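Affymetrix Rat Gene 1.1 ST arrays of 20 rats, 5 in each of 4 groups, were grouped by the labels of treatment and time. The deposited values are log2 intensities, for which the authors used RMA in oligo 1.22.0 (background correction, then quantile normalization and a summary per probe set). RMA shrinks differences of dim probe sets, and the number of arrays limits the precision.

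Values below the 20th percentile of all values (3.69, standing in for the median of the antigenomic probes of the methods) were raised to it. A probe set was dropped where over 5 arrays did not exceed this floor, which kept 15800 of the 18644 single-gene probe sets. A model of the 4 group means, with no replicate block, was fitted by limma 3.58.1 (lmFit, then eBayes, under R 4.3.3), and p-values were adjusted by Benjamini-Hochberg over all 15800 at a threshold of 0.05. The scripts were tested on simulated data.

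The members and the lists were chosen with earlier results of these data known. Named were the genes called at 7 d or 30 d, the 3 genes of each family with the smallest p at 7 d, their binding partners, called genes of the lists and genes called in the other comparisons. A few more were named, after their values were seen, to account for their families. Promoters were matched by gene identifier to RefSeq on GRCr8.

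The alternatives were no filter or a stricter one, no floor, array weights, median centring or a further quantile normalization, no moderation or robust moderation with a trend on intensity, a fit to only the groups compared, the mean over a gene's probe sets, a block for the replicate number, and the omission of each rat. Chosen after seeing the data were the omission of 2 rats that stand apart, of the 3 rats of highest Wfs1 (a CA1 gene) or of the 3 of highest Ttr, and Wfs1 as a covariate.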

Additional observations from a re-analysis of the deposited data

Results flagged for a closer look

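In groups of 5 rats, the highest or lowest rat was compared with its neighbour, and 20 of the 212 combinations of a guidance gene and a group had a rat that stood apart, where chance gives about 1 in 20. Of the 20, 9 were of sham 30 d rat 3, always below the rest of its group. These were Efnb2 (4.93, next 5.47), Sema4a (6.13, next 6.60), Sema4f (5.61, next 6.21), Sema5b (5.15, next 5.36), Plxna1 (7.25, next 7.54), Plxnb1 (7.57, next 7.84), Plxnb2 (7.40, next 7.59), Nrp2 (8.71, next 8.94) and Unc5a (8.95, next 9.16). Genes of all families but Slit and Robo were among them.

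Stimulated 7 d rat 5 stood below its group in Epha6 (8.83, next 9.11), Plxnc1 (6.70, next 6.99) and Unc5c (7.27, next 7.73). Stimulated 30 d rat 2 stood below its group in Epha3 (6.88, next 7.09) and Epha4 (9.28, next 9.47), and stimulated 30 d rat 5 in Efnb3 (7.47, next 7.92). Stimulated 7 d rat 4 was low in Epha7 (9.40, next 9.57). Above their groups stood stimulated 30 d rat 4 in Efnb2 (5.22, next 4.85), stimulated 30 d rat 3 in Sema4f (6.39, next 6.09), stimulated 7 d rat 1 in Sema5b (5.56, next 5.46) and sham 7 d rat 4 in Plxnc1 (7.38, next 7.29).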

How the results depend on the processing

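No change reversed its sign under any alternative in the 13 genes followed, and Epha8, Ntng1 and Plxnc1 at both times and Efna5 and Dcc at 7 d stayed called in all 35. The count of increases at 7 d was 4, and 2 with quantile normalization on top of RMA, with median centring, with only the groups compared, or without the 3 rats of highest Ttr. In these settings the 635 increases over all probe sets became 615, 502, 483 and 272, in that order. The count for the guidance genes was 2 to 5 when single rats were left out. The count of decreases at 7 d was 8, and 4 without the 3 rats of highest Ttr (Epha8, Ntng1, Dcc and Plxnc1), and 5 to 10 when single rats were left out. The count of decreases at 30 d was 4, and 10 with array weights. Array weights also gave 1 gene between the sham groups, Efna2, in place of 0, and calls over all probe sets were not counted there. The count averaged over both times was 19, and 15 to 20 under its alternatives, for which calls over all probe sets were not counted. Increases at 30 d and differences between the times were 0 under all that were run.

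With a replicate block, 4 guidance genes were higher and 8 lower at 7 d, and 4 were lower at 30 d, and no count moved by more than 1.5 times. Over all probe sets the block gave 612 higher and 356 lower at 7 d, and 125 lower at 30 d. Rats of the same number did not deviate together (correlations of -0.489 to 0.107 at 7 d and -0.123 to 0.153 at 30 d), so the numbers were not taken as pairs. Changes near the threshold, such as those of Sema5a (adjusted p of 0.0187 to 0.129 over the alternatives) and Efnb2 at 7 d (0.0154 to 0.193), rest on the choice of setting. Epha2, Sema3a and Ntn4 lay close to the background, where array signal limits what can be seen.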
